A study of Mus musculus with 24 samples.

Results

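The 5p mature miRNAs of the mouse hairpins from miR-6896 to miR-7094 were examined in 8 tissues of a murine lens-induced myopia model. The members were chosen by name alone, as every 5p miRNA on the array whose number lies in that range, with or without a letter after the number. There were 200 of them among the 1881 mouse miRNAs of the array. The tissues were cornea, iris, lens (the crystalline lens of the eye), retina, choroid (the RPE/choroid of the study's methods), sclera, SCN and LGN, the last pair being brain regions. Each tissue was measured on 1 array in each of 3 lens groups, called Control, 0D lens and Lens-induced in the labels, which gives 24 arrays. The mice were male C57BL/6J, with no transgene or deletion named for any group. Control eyes carried no lens, and the mice of the ocular Control arrays were also 3 weeks old at the start. Lens-induced eyes carried a lens of −30 D on the right eye from 3 weeks of age for 3 weeks. For the ocular tissues of these groups the methods state that RNA of 3 mice was mixed in equal parts for each array. The handling of the 0D lens group and of the brain regions was not given in the sources used here. One slide of 8 arrays held each lens group, which leaves slide effects and lens effects in a form that cannot be told apart.

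A miRNA usually comes from a hairpin that the nuclease Drosha cuts out of a longer transcript, after which Dicer releases a duplex of a 5p and a 3p arm. Mirtrons skip the first cut. Their hairpin is a short intron freed by the spliceosome, or has 1 end set by a splice site and a tail that is trimmed away, so that its 3′ end often carries the AG of the splice acceptor. Many miRNAs of this number range were named from sequencing reads of such introns. A mature miRNA finds its targets mainly through bases 2 to 8, the seed.

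The members whose signals are described most closely are printed from RefSeq (GRCm38.p6), 5′ to 3′, with the seed in capitals. The first group was detected on 13 or more arrays.
miR-7047-5p: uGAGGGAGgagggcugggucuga
miR-6937-5p: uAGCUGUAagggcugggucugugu
miR-7082-5p: uACGGGCAggaggaggggagg
miR-6931-5p: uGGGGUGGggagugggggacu
miR-7045-5p: aGCGGGUGggggagggggacu
miR-6918-5p: uGCUGAGGacgggauuagguucu
miR-6904-5p: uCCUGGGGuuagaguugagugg

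The second group is shown because its members were limited to the choroid and sclera (miR-7011-5p, miR-6973b-5p, miR-7070-5p), limited to the SCN (miR-6988-5p) or shared a seed with another detected member (miR-6965-5p).
miR-7011-5p: aGGAGGAUgggagagggaggugu
miR-6973b-5p: gUAGGUAUggggagaggacaggga
miR-7070-5p: gUGAGGGGagcugaggcagga
miR-6988-5p: gGGGUGGAgagcugaggccca
miR-6965-5p: aGAGGGAGgcuauugggcaggaga

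The RefSeq table held a sequence for 176 of the 200 members, including 21 of the 26 that were detected. The members were rich in G. The median share of G was 43.7% in members, against 23.8% in all other miRNAs with a sequence and 14.3% in the 3p miRNAs of the same numbers. A run of GGGG stood in 67 members (38.1%), against 8.03% of the other miRNAs. The 176 members held 155 different seeds, 18 of which belonged to more than 1 member. miR-7047-5p and miR-6965-5p share the seed GAGGGAG. Among the 171 members whose hairpin could be read, 158 hairpins (92.4%) ended in AG, as an intron does, but only 26 (15.2%) began with GU. The hairpins of miRNAs numbered under 5000 ended in AG in 8.54% of cases. Both ends were found in 20 member hairpins (11.7%). These letters describe the annotated hairpins, and the share ending in AG was much the same in detected members (18 of 20) and in those never detected (140 of 151). Of 176 members with coordinates, 155 (88.1%) lay within the span of a protein-coding gene on the same strand, against 46.9% of all other miRNAs. The tables give gene spans without exons, so that intron, exon and UTR positions were not read.

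The host genes are varied. miR-6904-5p lies at chr1:180587206-180587227 on the plus strand within Parp1, which encodes a DNA repair enzyme. miR-6918-5p lies at chr11:4891350-4891372 on the plus strand within Nipsnap1, which encodes a mitochondrial protein. miR-7045-5p lies at chr6:125097029-125097049 on the plus strand within Chd4, which encodes a chromatin remodeller. miR-7082-5p lies at chr9:21075563-21075583 on the minus strand within Raver1, which encodes an RNA-binding protein. miR-7018-5p lies within Hspg2, the gene of the basement membrane proteoglycan perlecan, miR-7005-5p within Lama5, the gene of a laminin chain, and miR-7055-5p within Slc17a7, the gene of a vesicular glutamate transporter. miR-6937-5p (chr12:28679325-28679348, plus strand) and miR-7047-5p (chr7:24987640-24987662, minus strand) are the detected members with a sequence that lie in no protein-coding gene span on their own strand. The host transcripts were not measured here.

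Signals are in array units. The signal of a miRNA is the sum of its probes that exceeded 3 times their own error, and a miRNA with no such probe was not detected. Arrays were scaled to a common 75th percentile, taken over the 79 miRNAs that every array detected. The log2 scale factors ran from −1.01 to 1.65, and the arrays of the lens had the highest ones, 1.27 to 1.65. Between 129 and 249 miRNAs were detected per array. The array number limits the precision, and signals of different miRNAs cannot be set against each other, because their probes differ. Tissue labels were checked with 17 marker miRNAs. miR-205-5p, of stratified epithelium, was detected at 895 to 1108 in the cornea, at 4.53 to 8.06 in the iris and on no lens array. miR-203-3p, of the same epithelium, was detected in the cornea alone. miR-184-3p was brightest in cornea and lens, and miR-183-5p and miR-96-5p in retina. The lens arrays also carried the muscle miRNA miR-133a-3p at 267 to 315 and the neuronal miR-124-3p at 105 to 390. The choroid and sclera carried miR-124-3p at 321 to 985. The other neuronal marker, miR-9-5p, was detected on no lens or sclera array, and at 5.76 to 7.88 in the choroid. The part of such other tissue in the results was not tested.

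Of the 200 members, 26 (13%) were detected on at least 1 array and 174 on none. The members made up 210 detections, 4.38% of all their readings. Detection was rarer than in the other miRNAs of the array, of which 368 of 1681 (21.9%) were seen at least once and 12% of readings were detections. In the miRNAs numbered under 5000 these shares were 30.4% and 17%. It was more frequent than in the 3p miRNAs of the same numbers, of which 6 of 199 were seen at least once, and than in miRNAs numbered 5000 or more outside the range, of which 28 of 382 (7.33%) were seen.

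miR-6937-5p and miR-7047-5p were detected on all 24 arrays and miR-7082-5p on 23, all but the Control cornea. miR-6931-5p was detected on 14 arrays, and miR-6904-5p, miR-6918-5p and miR-7045-5p on 13 each. Another 9 members were detected on 6 to 10 arrays and 10 on 1 to 5. Detection on all 3 arrays of at least 1 tissue was reached by 16 members. miR-7005-5p, miR-7031-5p and miR-7055-5p appeared on a single array each.

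**Figure D1:**
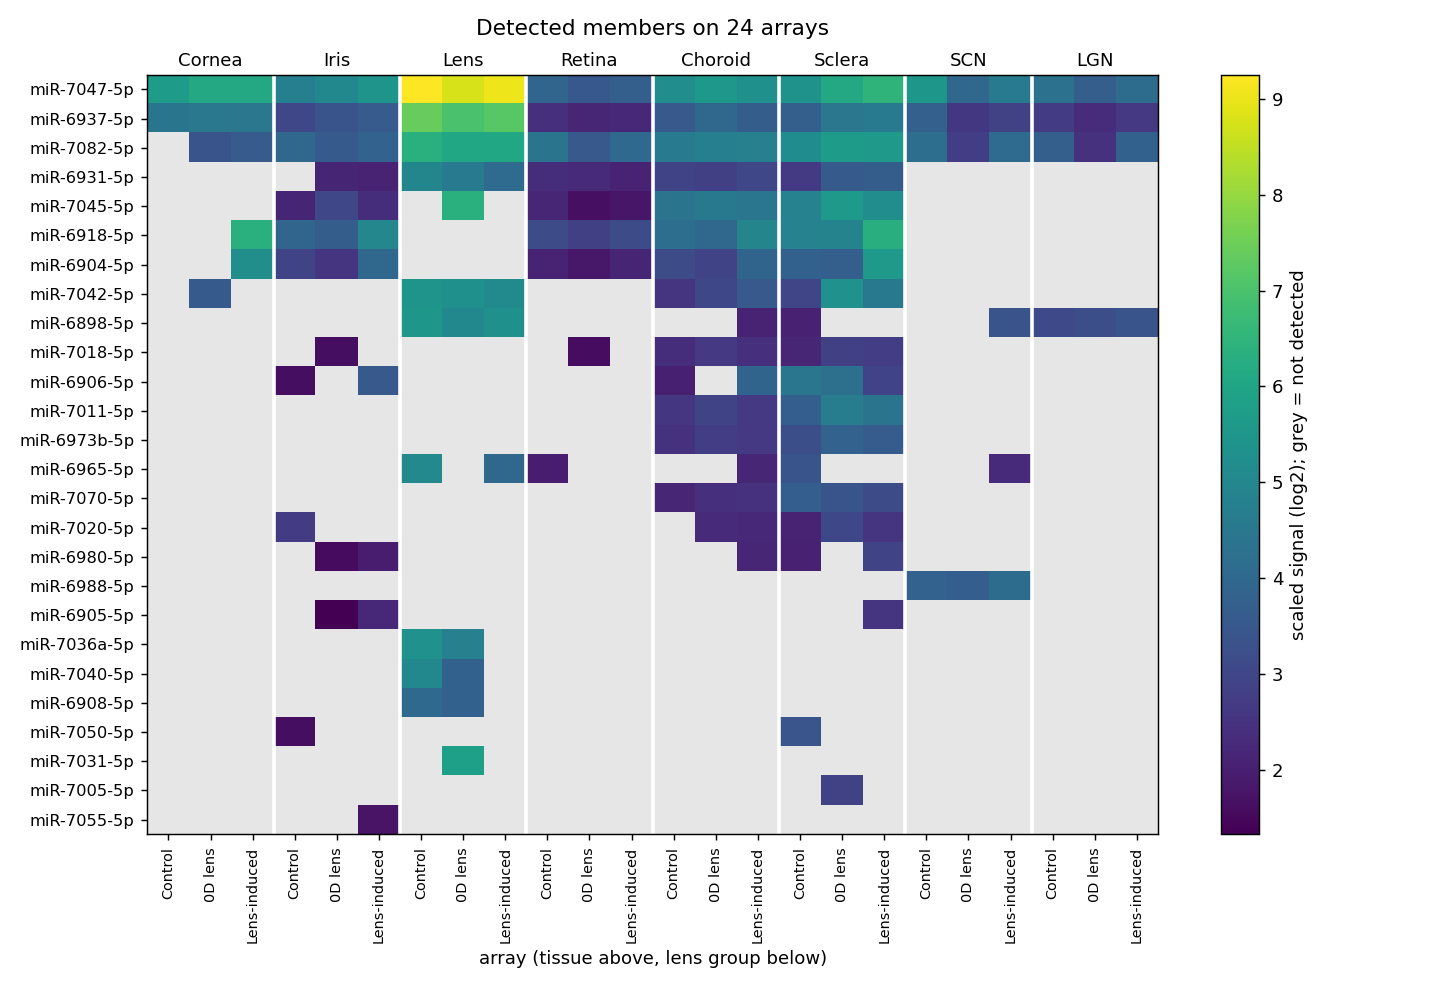
Scaled signal (log2, colour) of the 26 detected members (rows) on the 24 arrays (columns, grouped by tissue with the lens groups in the order Control, 0D lens, Lens-induced). Grey marks a member that was not detected. Most detected cells lie in 7 rows, and the choroid and sclera columns hold the most members.

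The never-detected members nearest to the limit were miR-6984-5p, whose best probe reached 2.90 errors, and miR-7088-5p with 2.54. The detected members nearest to it were miR-7055-5p with 3.02 and miR-6908-5p with 3.51. The median of the highest ratio of signal to error was −0.22 for the 174 never-detected members, and 95.4% of their probe readings were below 0 after background subtraction. Of the 210 member detections, 127 (60.5%) rested on 1 probe. miR-6937-5p was seen by 1 probe on all 24 arrays, and so was miR-6931-5p on its 14, while miR-6918-5p was seen by both of its probes on 13. The 6 negative control probes were above 3 errors in 20 of 144 readings (13.9%), against 2.98% of member probe readings. Each control probe has 100 spots, and each member probe 10 to 15. The median raw signal of a member's brightest passing probe exceeded that of every negative control probe on the same array in 199 of 210 detections (94.8%), against 97.6% in all other miRNAs. All detections of miR-6937-5p, miR-7047-5p, miR-7082-5p, miR-6904-5p, miR-6918-5p and miR-6931-5p exceeded the controls. The exceptions lay in miR-6898-5p, miR-6906-5p, miR-6965-5p, miR-6980-5p, miR-7018-5p, miR-7020-5p, miR-7045-5p and miR-7050-5p, with 1 or 2 detections each.

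Detection moved with the share of G. Of 25 members with less than 35% G, 1 was detected, 3 of 64 between 35% and 45%, 9 of 71 between 45% and 55% and 8 of 16 (50%) with 55% or more. The same order held in miRNAs numbered 5000 or more outside the range, where 7 of 218 with less than 35% G and 6 of 11 with 55% or more were detected. In miRNAs numbered under 5000 the share was 29.6% at the low end and 41.7% at the high end. The part of base composition in the probe signal was not tested.

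**Figure D2:**
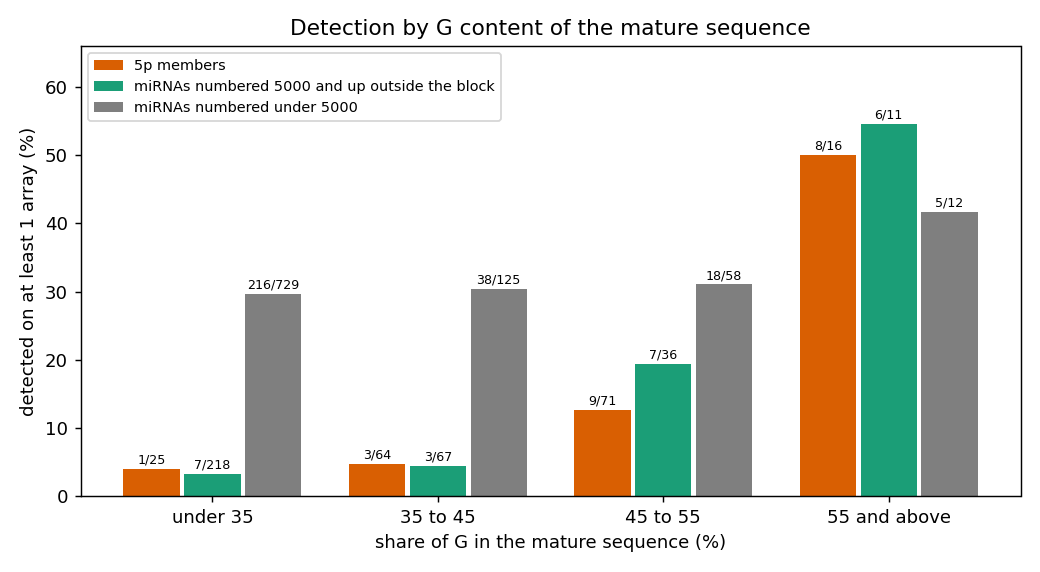
Percent of miRNAs detected on at least 1 of 24 arrays (bars) by the share of G in the mature sequence, for the 5p members and for 2 other groups of miRNAs. Numbers over the bars give detected over all with a sequence. Detection goes from 4% to 50% in the members, and from 29.6% to 41.7% in miRNAs numbered under 5000.

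The tissues showed unequal numbers of members. In bulk tissue, fewer cells of a type and less RNA per cell cannot be told apart. The sclera had 15 to 18 members per array, the choroid 13 to 17, the iris 9 to 11, the lens 7 to 11, the retina 7 or 8, the SCN 4 to 6, the LGN 4 and the cornea 2 to 5. The brain arrays had few members although they had many detected miRNAs, 225 to 249 in all. The members were 6.91 to 7.53% of the detected miRNAs in the sclera, 5.43 to 7.38% in the lens and 1.61 to 2.44% in the SCN. Between lens groups the sums were alike, with 68 member detections on the Control arrays, 69 on the 0D lens arrays and 73 on the Lens-induced arrays. These were 4.06%, 4.05% and 4.39% of all detections.

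Several members followed a tissue pattern on every array. miR-6988-5p was detected in the SCN alone, at 14.1 in Control, 12.9 in 0D lens and 17.6 in Lens-induced. The host gene, Syvn1, encodes a ubiquitin ligase of the endoplasmic reticulum. miR-7011-5p, miR-6973b-5p and miR-7070-5p were detected on all 6 arrays of choroid and sclera and nowhere else. Their sclera signals were 12.9, 25.9 and 20.7 for miR-7011-5p, 9.41, 14.1 and 12.3 for miR-6973b-5p and 12.9, 10.4 and 8.81 for miR-7070-5p, in the order Control, 0D lens, Lens-induced. In the choroid they ran from 4.5 to 7.68. All 3 sclera arrays exceeded all 3 choroid arrays for each of these miRNAs. miR-7018-5p, on all arrays of both tissues as well, ran from 4.54 to 7.11 in the sclera and from 5.18 to 6.2 in the choroid, so that the tissues overlapped.

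miR-6898-5p was detected on all arrays of the lens, at 46.3, 32.9 and 39.1, and of the LGN, at 8.37, 9.42 and 10.5. Without scaling the medians of the tissues were 13.7 and 14.5, so that the lens was not the higher one. miR-7042-5p had 42.9, 39.5 and 34.1 in the lens and was detected on all 3 arrays of choroid and sclera too. miR-7036a-5p, miR-7040-5p and miR-6908-5p were detected in the lens alone, in Control and 0D lens. Their Control signals were 40.7, 32.7 and 16.3. miR-7031-5p was detected in the 0D lens array of the lens alone, at 56.1. On that array miR-7045-5p was 82.2, and it was not detected on the other lens arrays.

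The members detected on every array had their highest signal in the lens. For miR-7047-5p the lens gave 609 in Control, 435 in 0D lens and 532 in Lens-induced. The mean log2 signal was 9.02 ± 0.24 (SD, n = 3) in the lens, 5.99 ± 0.56 in the sclera, 5.96 ± 0.25 in the cornea, 5.36 ± 0.17 in the choroid, 5.07 ± 0.33 in the iris, 4.70 ± 0.77 in the SCN, 4.05 ± 0.28 in the LGN and 3.72 ± 0.20 in the retina. The lens arrays all lay above those of every other tissue, and the cornea arrays all lay above those of the choroid. The other neighbours in this order had overlapping arrays. The n of 3 is 1 array of each lens group. Without scaling the lens was still highest, with a median of 181 against 59.5 in the sclera.

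miR-6937-5p gave 170, 126 and 147 in the lens, and its lowest tissue was also the retina, with 5.23, 4.54 and 4.63. Its mean log2 signal was 7.20 ± 0.22 (SD, n = 3) in the lens, 4.47 ± 0.06 in the cornea and 2.26 ± 0.11 in the retina. Without scaling its lens median was 52.4, against 19.2 in the sclera. miR-7082-5p gave 81.8, 65.6 and 66.5 in the lens and 36, 51.2 and 48 in the sclera. Here the order rests on the scaling, since the unscaled median was 27.3 in the lens, 35.8 in the choroid and 42.9 in the sclera. The same holds for miR-6931-5p, with unscaled medians of 9.81 in the lens and 10.7 in the choroid, and for miR-7042-5p, with 16.4 in the lens and 20.5 in the sclera.

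**Figure D3:**
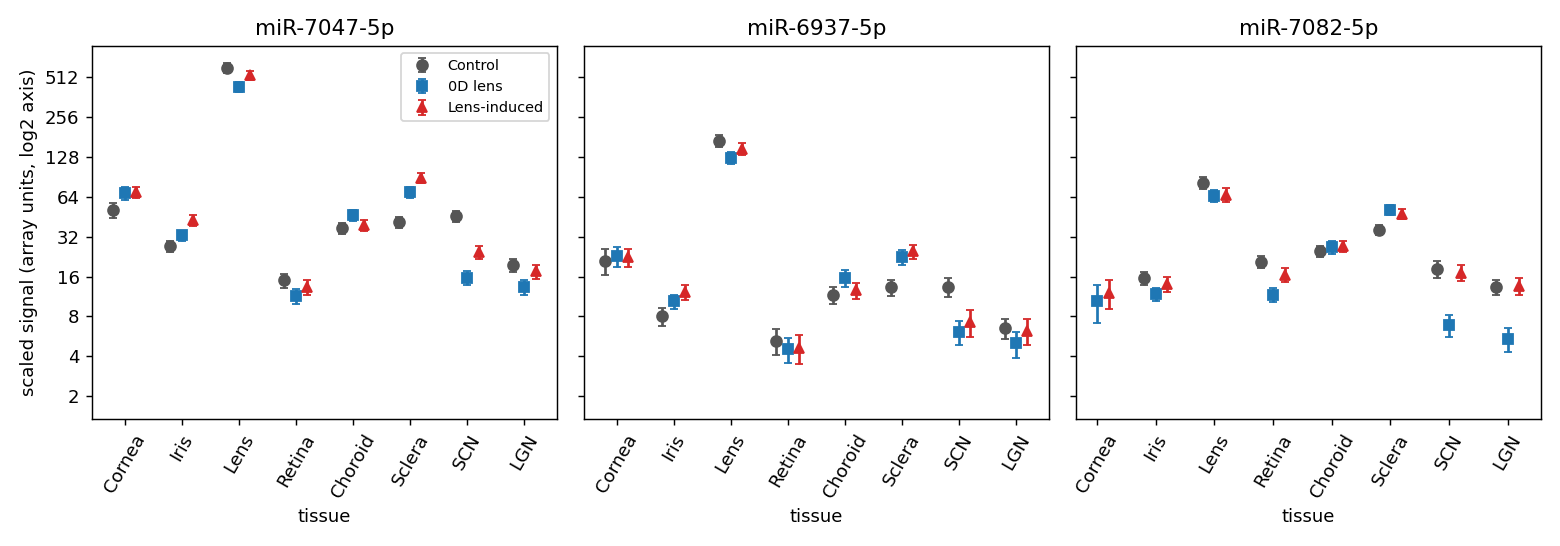
Scaled signal (log2 axis, array units) of miR-7047-5p, miR-6937-5p and miR-7082-5p in each tissue, 1 point per array, with the error given by the scanner software as bars and colours for the lens groups. The lens of the eye is the highest tissue in all 3 panels, for miR-7082-5p only after scaling, and the 0D lens array of the SCN lies below the others of that tissue.

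A linear model with tissue and lens group as terms was fitted to the 79 miRNAs detected on every array, among them miR-6937-5p and miR-7047-5p. Both differed between tissues by the F-test over the 8 tissues in limma (adjusted p = 4.2e-11 and 2.4e-10). All tested miRNAs (100%) passed this test. No lens contrast called either member. For Lens-induced against Control, which called 0% of the tested miRNAs, the log2 difference was 0.04 ± 0.16 (SE) for miR-6937-5p and 0.11 ± 0.19 for miR-7047-5p (limma adjusted p = 0.97 for both). For 0D lens against Control, where 2.53% were called, the differences were −0.06 ± 0.16 and −0.15 ± 0.19 (limma adjusted p = 0.76 and 0.62). For Lens-induced against 0D lens, where 7.59% were called, they were 0.11 ± 0.16 and 0.26 ± 0.19 (limma adjusted p = 0.68 and 0.36). The number of members with an unadjusted p under 0.05 was 0 in each lens contrast.

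The arrays of a tissue repeated each other less well in members than in other miRNAs. A member was detected in a tissue in 88 cases, of which 55 (62.5%) held on all 3 arrays, 12 on 2 and 21 on 1. In all other miRNAs 84.1% held on all 3. The share was 80.2% in miRNAs numbered 5000 or more outside the range, and 43.5% in the 3p miRNAs of the same numbers. The 3 arrays come from different lens groups, so this spread holds both array error and any lens difference. By tissue the share in members was lowest for the cornea (33.3%), the iris (42.9%) and the lens (50%). It was 66.7% for the SCN, 70% for the sclera, 70.6% for the choroid and 77.8% for the retina. In the LGN all 4 members seen were seen on all arrays. Where a member was on all 3 arrays, the median SD of its log2 signal was 0.28, against 0.17 in all other miRNAs. It was 0.29 in miRNAs numbered 5000 or more outside the range, much as in members, and 0.21 in the 3p miRNAs. In the choroid the median SD of members was 0.17, with miR-7082-5p at 0.07 and miR-7045-5p also at 0.07. In the sclera it was 0.50, and in the SCN 0.68.

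Part of the incomplete detection went with dim signals. Where the highest of the 3 signals was under 8, the share on all 3 arrays was 35.7% in members and 47.3% in other miRNAs. Between 16 and 32 it was 93.3% and 91.9%. At 32 and above the members fell behind, with 15 of 22 cases (68.2%) against 99.1%. The 7 cases that failed were miR-6904-5p and miR-6918-5p in the cornea, and miR-6965-5p, miR-7031-5p, miR-7036a-5p, miR-7040-5p and miR-7045-5p in the lens. They were bright by scaled signal. Before scaling their highest signals were, in the same order, 23.7 and 51.3 in the cornea. In the lens they were 12.6, 23.3, 15.5, 12.5 and 34.2, so that most lay under 32. The arrays of these tissues had the highest log2 scale factors, 0.69 to 0.98 in the cornea and 1.27 to 1.65 in the lens. The larger SD of members did not go with dim signals. Under 8 the median SD was 0.16 in members and 0.19 in other miRNAs. Between 8 and 16 it was 0.30 and 0.22, and between 16 and 32 it was 0.45 and 0.21. At 32 and above it was 0.27 and 0.15.

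**Figure D4:**
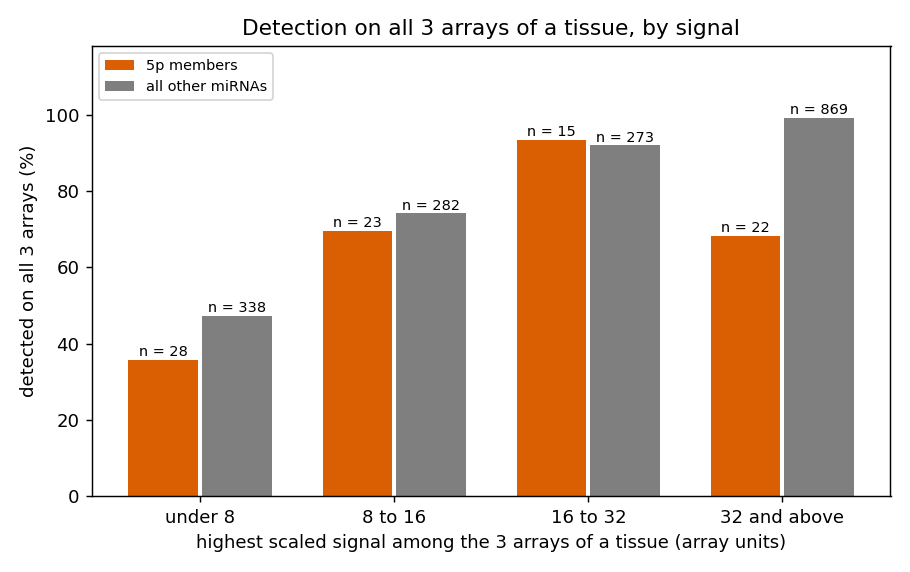
Percent of miRNA and tissue cases detected on all 3 arrays of the tissue (bars), by the highest scaled signal among the 3 arrays, for members and all other miRNAs. The n over a bar is the number of cases. The members are at 68.2% where the signal is 32 or more, and the other miRNAs at 99.1%.

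Among members on all 3 arrays of at least 2 tissues, the largest spread over such tissues was that of miR-6904-5p (median SD 0.62), miR-6918-5p (0.60), miR-7042-5p (0.50), miR-7011-5p (0.35) and miR-7045-5p (0.33). miR-6906-5p, complete in the sclera alone, had an SD of 0.83 there, and miR-7020-5p, also complete in the sclera alone, had 0.48. The sclera signals of miR-7042-5p, 7.84 in Control, 40.1 in 0D lens and 22.9 in Lens-induced, had the largest SD, 1.20. For miR-7047-5p and miR-7082-5p the SCN was the least even tissue. miR-7047-5p had 45.8, 15.8 and 24.5 there, and miR-7082-5p had 18.3, 6.9 and 17.1, so that 0D lens was lowest in both.

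The study's criteria compared 1 array with 1 array. A miRNA was past them when its ratio was above 2 or below 0.5 with both arrays detected, or above 5 or below 0.2 with 1 array detected. The value of 0.1 for an undetected miRNA was set here. As the lowest detected signal was 1.09, every case with 1 detected array passed by construction. There is no replicate, and no test is possible within a tissue. For Lens-induced against Control, 33 of the 82 member and tissue pairs detected on either array were past the criteria (40.2%), against 17.2% over all miRNAs. Of these 22 were higher, where 9.27% of all miRNA pairs were, and 11 lower, where 7.92% were. For 0D lens against Control 28 of 79 member pairs (35.4%) were past, against 15.6% over all miRNAs. Both comparisons use the same Control arrays.

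Most of the 33 were cases of presence on 1 array. Only 10 had the member detected on both arrays, 16.9% of the 59 such pairs, against 5.39% over all miRNAs. For 0D lens against Control these were 7 of 58 (12.1%), against 4.91%. In the other 23 the ratio is a bound, the detected signal over the highest signal that the undetected array allows, and the bound was under 1 in 15 cases, between 1 and 2 in 7 and at least 2 in 1. That case was miR-6918-5p in the cornea.

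The iris had 7 higher members of 13, against 7.26% of its miRNAs, and 2 lower, against 10.7%. The sclera had 5 higher and 4 lower of 19, against 14.2% and 14.6%. The choroid had 5 higher of 17, against 12.3%, and the cornea 3 higher of 5, against 29.1%. The lens had 4 lower of 10, against 7.91%, the retina 1 lower of 8, against 3.9%, and the SCN 2 higher of 6, against 4.63%. In the LGN 0 of 4 members were past the criteria, against 16.5% of its miRNAs.

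miR-6918-5p and miR-6904-5p were past the criteria in the same 3 tissues, all higher in Lens-induced. In the iris miR-6918-5p was 15.1 in Control, 12.8 in 0D lens and 31.8 in Lens-induced, a log2 ratio to Control of 1.08 ± 0.21 (error propagated from the scanner's probe errors). In the sclera it was 28.6, 29.1 and 81, a log2 ratio of 1.5 ± 0.17. In the choroid it was 18.5, 15.9 and 30.6, and in the retina 8.8, 7.1 and 8.85. Lens-induced was thus the highest array in all 4 tissues, though in the retina by less than the scanner's error. In the cornea it was detected on the Lens-induced array alone, at 82.7, which is at least 3.37-fold higher than Control. The cornea comparison had 29.1% of all miRNAs higher.

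miR-6904-5p was 7.72, 5.78 and 16.2 in the iris, in the same order of groups, with a log2 ratio of 1.06 ± 0.29. It was 14, 13.3 and 48.4 in the sclera, with a log2 ratio of 1.79 ± 0.24. In the cornea it was 38.2 in Lens-induced, at least 1.57-fold higher than Control. Without scaling the log2 ratios in the iris were 0.97 for miR-6918-5p and 0.95 for miR-6904-5p, under the limit of a ratio of 2. Neither was detected in the lens, SCN or LGN. Of the 17 marker miRNAs, 12 were detected on each of the 3 iris arrays, and 14 on both cornea arrays of 0D lens and Lens-induced against 12 in Control. Markers of other tissues also differed between the sclera arrays. In the order Control, 0D lens, Lens-induced, miR-184-3p was 123, 111 and 275 there, miR-183-5p 658, 253 and 327, miR-133a-3p 58.4, 116 and 96.8, and miR-124-3p 587, 346 and 321, with 12, 13 and 12 markers detected. Their part in the result was not tested. With the total that the scanner files print for a miRNA in place of the sum of its passing probes, the log2 ratios of miR-6904-5p turned to −0.73 in the iris, which ended the call, and −1.18 in the sclera, while both calls of miR-6918-5p held. The cause was not tested.

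By the sum of passing probes both members moved together on all arrays, a pattern noticed after their values were seen. They were in the same state, detected or not, on 24 of 24 arrays. On the 13 arrays with both, the ratio of miR-6904-5p to miR-6918-5p lay between 0.45 and 0.60, with an SD of the log2 ratio of 0.10, while each varied with an SD of 1.16 and 1.13. miR-6904-5p rested on 1 probe on 12 of these arrays, and miR-6918-5p on 2 probes on all 13. With the printed total they did not move together in the iris and sclera. There the log2 ratios of miR-6904-5p turned to −0.73 and −1.18, while the calls of miR-6918-5p held. These members lie on different chromosomes and their seeds, CCUGGGG and GCUGAGG, differ. In the fit with an entry limit of 12 arrays, the log2 difference of Lens-induced against 0D lens over tissues was 0.98 ± 0.24 (SE) for miR-6904-5p and 1.06 ± 0.31 for miR-6918-5p, with limma adjusted p = 0.051 and 0.12. Against Control it was 0.82 ± 0.24 and 0.92 ± 0.31, with limma adjusted p = 0.22 and 0.33. That fit gave an undetected miRNA the lowest detected signal of its array. In the order Control, 0D lens, Lens-induced, the set values were 8.45, 6.18 and 9.61 in the lens. They were 2.50, 1.68 and 2.18 in the SCN, and 1.55, 1.48 and 1.88 in the LGN. In the cornea, Control and 0D lens were set to 6.01 and 9.93. The part of these set values in the differences was not tested.

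**Figure D5:**
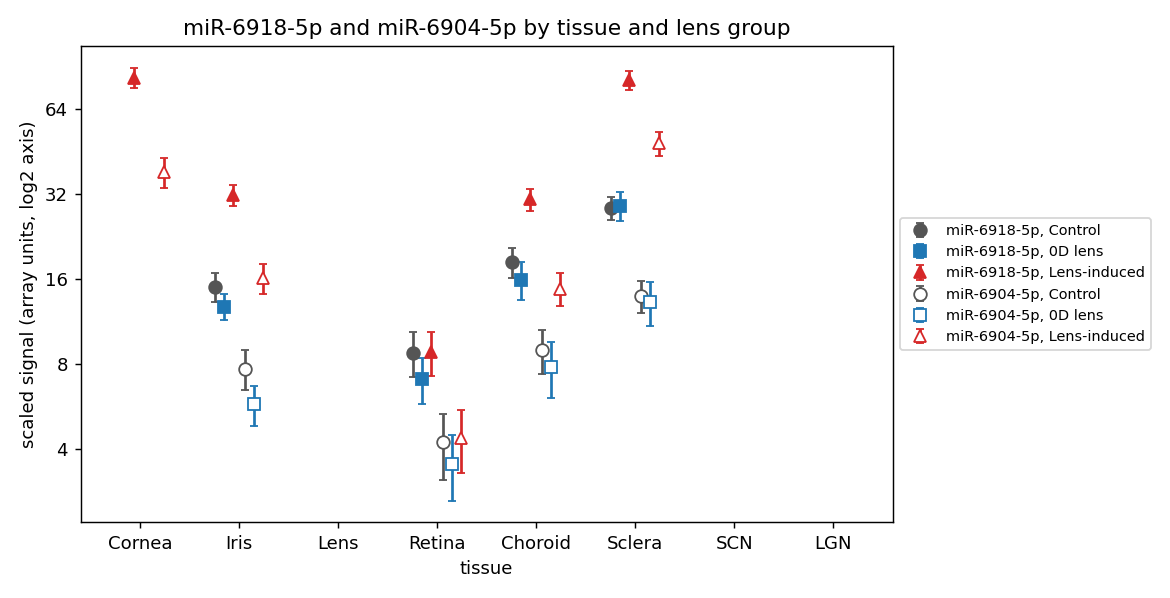
Scaled signal (log2 axis, array units) of miR-6918-5p (filled) and miR-6904-5p (open) on every array where they were detected, by tissue and lens group, with the scanner's error as bars. The Lens-induced array is the highest in iris, choroid and sclera for both, the only detected one in the cornea, and both are missing in lens, SCN and LGN.

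A pair of members with a shared stretch also moved together. miR-6937-5p and miR-7047-5p hold a common run of 13 bases, printed here in capitals.
miR-6937-5p: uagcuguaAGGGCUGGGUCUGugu
miR-7047-5p: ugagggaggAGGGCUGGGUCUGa

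The run spans positions 9 to 21 of the first and 10 to 22 of the second, counted from the 5′ end, and lies outside both seeds. It is the longest run between any of the 210 pairs of detected members with a sequence, whose median was 5 bases, and no other miRNA of the array with a sequence holds it. The ratio of miR-6937-5p to miR-7047-5p lay between 0.28 and 0.41 on all 24 arrays, with an SD of the log2 ratio of 0.16, while their own SDs were 1.51 and 1.61. Some pairs not known to share this run also had a narrow ratio. The SD of the log2 ratio was 0.26 for miR-7047-5p and miR-2137, on 15 arrays with both. It was 0.33 for miR-6931-5p and miR-7082-5p, on 14 arrays. Whether the probes of miR-6937-5p and miR-7047-5p read the same molecules was not tested.

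Among the other members past the criteria with both arrays detected, miR-6906-5p was higher in the iris (3.08 in Control, 11.6 in Lens-induced; log2 ratio 1.91 ± 0.52) and in the choroid (4.08 and 14.7; 1.85 ± 0.51). In the sclera it was lower, with 21.7 and 7.54 (−1.52 ± 0.39), while 0D lens gave 19.1. The 0D lens arrays of iris and choroid did not detect it. miR-7042-5p was higher in the sclera at 1.55 ± 0.32, but its 0D lens signal of 40.1 lay above that of Lens-induced. miR-7047-5p was higher in the sclera, 41.4, 69.2 and 89.1, at 1.11 ± 0.19, which was 0.96 without scaling. miR-6965-5p was lower in the lens, with 33 in Control and 15.6 in Lens-induced (−1.08 ± 0.54). A sum of passing probes also depends on how many probes passed. miR-6906-5p passed by 1 probe on 3 arrays and by 2 on 4. miR-6965-5p passed by 1 probe on 4 arrays and by 2 on 2. The part of the probe number in these ratios was not tested. With the printed total all the calls above changed. The log2 ratios of miR-6906-5p turned to −1.87 in the iris, −2.35 in the choroid and 1.24 in the sclera, and that of miR-6965-5p to 2.76. In the sclera miR-7042-5p was at −0.01 and miR-7047-5p at 0.84, under the limit.

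Other cases rested on a single detected array. miR-6905-5p in the iris and sclera, and miR-6980-5p in the iris and choroid, were detected in Lens-induced at 3.91 to 5.7 and not in Control. The 0D lens array of the iris also detected them, at 2.52 and 2.93. miR-7050-5p was detected in Control at 3.11 in the iris and 10.7 in the sclera, and not in Lens-induced. miR-7055-5p had 3.37 in the Lens-induced iris. Their bounds were under 1 except for miR-7050-5p in the sclera, which was at least 1.03-fold lower. In the lens miR-7036a-5p was at least 1.44-fold lower and miR-7040-5p at least 1.15-fold lower, while miR-6908-5p had a bound under 1.

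On the 0D lens array of the SCN 3 of 4 members were past the criteria as lower than Control, against 26 of 262 miRNAs. The log2 ratio to Control was −1.54 ± 0.23 for miR-7047-5p, −1.13 ± 0.38 for miR-6937-5p and −1.41 ± 0.35 for miR-7082-5p. Without scaling these were −0.66, −0.24 and −0.53, so that none was past the criteria. In the LGN miR-7082-5p was −1.29 ± 0.35, and −0.98 without scaling. It was the 1 of 4 members that was lower there, against 17 of 250 miRNAs.

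The other arm of the hairpins was rarely seen. Of 198 hairpins with both arms on the array, 24 had the 5p arm alone detected, 4 the 3p arm alone, 2 both and 168 neither. miR-6937-3p was not detected on any array, and miR-7047-3p was detected on 10. miR-7082-3p was detected on 1 array, at 2.88. miR-7080-3p was detected on all 24 arrays with a median of 6.46, while miR-7080-5p was on none, and its best probe reached 2.01 errors. Among early described mirtrons, all 24 arrays detected miR-1224-5p and 20 detected miR-877-3p, while miR-702-3p, miR-877-5p and miR-1224-3p were on none.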

How the data were processed

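Total RNA (100 ng) was labelled with Cy3 and hybridized to one-colour arrays of miRBase mouse miRNAs. The authors made the deposited intensity values with Feature Extraction 10.7.1.1, which subtracts background and combines the spots of a probe (30 per miRNA) into a total signal with an error. The sum over a miRNA's probes above 3 errors was computed anew, because the printed total differed from it by over 1% in 125 member detections. A table of 24 normalized value columns with detection flags was not used. Members and lists were chosen with earlier results of these data known.

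Signals were taken to log2 after scaling to an equal 75th percentile of the 79 miRNAs seen on every array. limma 3.58.1 in R 4.3.3 was fitted to these miRNAs with tissue and lens group as terms, with Benjamini-Hochberg adjustment over all 79 and a limit of 0.05, after a check on simulated data. Each tissue had 1 array per lens group, so the p-values rest on the spread left after the tissue and lens group terms. That spread holds array error and any lens difference that varies between tissues, which cannot be told apart. By the study's methods the ocular tissues of Control and of Lens-induced came from 3 mice each. Tissues are therefore not independent animals, and the p-values hold no replication between pools. A bound sets the undetected array to the higher of its lowest detected signal and the sum of 3 errors over the probes. The array software's errors leave out the spread between animals. Members named are those on all arrays, those with the highest signals, the widest or narrowest tissue range, the widest spread, criteria passed in 2 or more tissues, or 1 tissue alone; the rest of the 26 detected members were added after their values were seen.

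Alternatives changed the detection limit to 2 or 5 errors, the signal to the printed total, the scaling (none or quantile), the filter, the background correction (normexp, offset 50, on the spots' median signals because the files here held no mean signals), the variance prior, the slide term, and for the criteria the ratio limit (3) and the value of an undetected miRNA.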

Additional observations from a re-analysis of the deposited data

Results flagged for a closer look

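4 members were past the criteria in opposite directions in different tissues, Lens-induced against Control. They were 4 of the 9 members past the criteria in 2 or more tissues (44.4%), against 35 of 76 (46.1%) over all miRNAs. The difference between tissues was not tested, and 1 array stands on each side.

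miR-6906-5p had log2 ratios of 1.91 in the iris and 1.85 in the choroid, and −1.52 in the sclera, with both arrays detected in each. All 3 turned with the printed total, to −1.87, −2.35 and 1.24. Its detections rested on 1 probe on 3 arrays and on 2 probes on 4. The part of the probe number was not tested. For the others 1 array was mostly undetected, and the signal of the detected array is given. miR-6898-5p was detected in Lens-induced at 4.25 in the choroid and 10.5 in the SCN, and in Control at 4.13 in the sclera. miR-7020-5p was detected in Control at 6.66 in the iris and in Lens-induced at 4.62 in the choroid. miR-6965-5p was detected in Lens-induced at 4.58 in the choroid and 4.94 in the SCN, in Control at 3.89 in the retina and 10.5 in the sclera, and in the lens on both arrays with a log2 ratio of −1.08, which turned to 2.76 with the printed total.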

How the results depend on the processing

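With a limit of 5 errors 14 members were detected in place of 26, and 1 in place of 2 on every array. The number of members that the F-test called was 7 with a limit of 12 detected arrays, which let 7 members in (197 of 197 miRNAs were called), and 30 of 200 (15%) with no filter, where 38.8% of all miRNAs were called, and 6 of these 30 were never detected by the 3-error limit. The fit with a limit of 12 arrays set undetected values to the array's lowest detected signal. With no filter 0D lens against Control called 1 of 200 members, miR-7050-5p, which was the only call among 1881 miRNAs (0.053%). This member was detected on 2 arrays, both Control. The fit without a filter set low and negative signals to a common floor. The other counts of called members were the same under every alternative run. The log2 difference of 0D lens against Control turned to 0.18 (no scaling) and 0.11 (quantile) for miR-6937-5p and to 0.094 (no scaling) for miR-7047-5p, and that of Lens-induced against 0D lens to −0.12 and −0.023 for miR-6937-5p. None passed the test. Members past the criteria fell from 33 to 12 when an undetected miRNA was given the array's lowest detected value, and to 10 with both arrays detected, an alternative chosen after seeing the data. With the printed total 38 were past, 25 of them among the 33. Of the 8 lost, 3 calls ended and 5 turned. The cause of the other moves was not tested. Scaling by all miRNAs was not run, since under 25% were detected and the percentile falls on the value of an undetected miRNA. The lens contrasts were paired by tissue, which was a term of the fit. Leaving out the slide of each lens group in turn left the F-test at 2 of 2 members. Of other alternatives chosen after seeing the data, leaving out the 3 lens-tissue arrays gave 22 detected members and 64.5% of cases on all 3 arrays, a probe above every negative control gave 26 and 63.4%, and leaving out the cornea gave 30 cases past the criteria.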
